A study of Glycine max with 24 samples.

Results

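The alternative oxidases of soybean were measured through every probe set that the array's annotation assigns to AOX1, AOX2 or AOX3 and to no other gene. There are 6 such probe sets among the 37593 soybean probe sets tested: 2 for AOX1 (Gma.1439.1.S1_at and Gma.8204.1.A1_at), 1 for AOX2 (Gma.8415.1.S1_at) and 3 for AOX3 (Gma.11120.1.S1_at, GmaAffx.86361.1.S1_s_at and GmaAffx.91355.1.S1_s_at). Probe sets whose names end in _s_at hold probes that can match several transcripts, so the last 2 of AOX3 may also report related sequences. No probe sequences were used here, and whether AOX2 and AOX3 probes match each other's transcripts was not tested.

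Alternative oxidase sits in the inner membrane of plant mitochondria, takes electrons from ubiquinol and passes them to oxygen. It bypasses the cytochrome pathway, so that fewer protons are pumped, and it is known for limiting the formation of reactive oxygen when the electron transport chain is over-reduced. Plant genes of the AOX1 type are commonly stress-induced, while those of the AOX2 type are more often steadily expressed. Soybean AOX2 and AOX3 are also listed as Aox2a and Aox2b. In the RefSeq gene list of assembly Glycine_max_v4.0 they are neighbours with 0 other genes listed between them, and AOX1 is on another chromosome.

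RNA came from root tips about a centimetre long, cut from seedlings of the genotypes PI 416937 (PI below) and Young that were grown hydroponically in a growth chamber. The groups were PI with Al plus Mg for 72 h, PI with Al alone for 72 h, PI with Al plus Mg for 12 h, PI with Al alone for 12 h, and the same 4 in Young, with 3 arrays each and 24 in all. The Al dose in the labels was 10 µM, no Mg dose is given there, and every group received Al, so no level without Al was measured here. The labels class PI as Al-sensitive and Young as Al-tolerant, the opposite of how PI 416937 is generally described, and the groups are therefore called by genotype name alone.

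Arrays of a group correlated at r = 0.981 to 0.994, and 77.6% to 81.3% of the tested probe sets lay above the background bound of their array. That bound, between 2.74 and 3.14 on the log2 scale, was the 99th percentile of the 23394 probe sets for other organisms. The root tip markers EXP1 (an expansin) and PIN2A (an auxin efflux carrier) were above it on all arrays. Of 17 seed markers, 10 to 12 were at background on each array, among them the storage protein and trypsin inhibitor genes GY1, GY5, GY7, CG-1, KTI1 and KTI3. Other inhibitor genes of that list were far above it, with group means of 13.49 to 14.77 for KTI-2, 13.60 to 14.11 for KTI-3, 8.72 to 12.39 for BBI-1 and 9.21 to 11.59 for BBI-2. Of 6 leaf markers, 0 to 2 were at background on each array. All values below are log2 of the deposited intensity, and levels are compared within a probe set only. In whole root tips, fewer cells of a type and less RNA per cell cannot be told apart. The labels do not say whether the 3 arrays of a group came from separate plants or pools, so p-values measure the spread between these arrays, which may be technical.

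After 72 h, all 3 genes had lower signal in roots given Al plus Mg than in roots given Al alone, in both genotypes. AOX1 showed the widest span, with a mean difference of about 6 log2 units in PI and more than 8 in Young, while AOX2 and AOX3 differed by about 1 to 1.5. At 12 h no alternative oxidase probe set passed the test between the treatments. The series title asks how Mg relieves Al toxicity, and the Mg comparison within each genotype and time is the one that bears on it.

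For AOX1, probe set Gma.1439.1.S1_at had 5.99, 3.79 and 5.45 in PI with Al plus Mg at 72 h, against 11.41, 10.93 and 10.85 in PI with Al alone. In Young at 72 h it had 3.81, 3.43 and 3.82 with Al plus Mg, against 11.95, 12.23 and 12.77 with Al alone. All 6 arrays with Mg were lower than all 6 arrays without it, and the 3 Young arrays with Mg lay little above their background bounds. Its mean was 5.07 ± 1.15 in PI with Al plus Mg and 11.06 ± 0.30 in PI with Al alone (SD, n = 3 each), a log2 difference of -5.99 ± 0.67 (SE), or 63.5-fold, with a limma adjusted p of 3.3e-06. In Young the means were 3.69 ± 0.22 with Al plus Mg and 12.32 ± 0.42 with Al alone (SD, n = 3 each), a log2 difference of -8.63 ± 0.67, or 396-fold, with a limma adjusted p of 3.8e-08. Among all tested probe sets, 163 had a larger fall in PI and 28 had a larger fall in Young. With 32 added to the intensities before the logarithm, the log2 differences of Gma.1439.1.S1_at shrank to -4.97 in PI and -6.84 in Young, and both still passed.

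The second AOX1 probe set, Gma.8204.1.A1_at, had 2.39, 2.41 and 2.40 in PI with Al plus Mg at 72 h, against 6.48, 6.32 and 6.47 with Al alone. In Young it had 2.36, 2.35 and 2.39 with Al plus Mg, against 7.28, 7.88 and 8.34 with Al alone. All 6 arrays with Mg were at background, so only a bound on the fold can be given. The fall was at least 10.2-fold in PI and at least 31.95-fold in Young. The fitted log2 differences were -4.02 in PI and -5.47 in Young. limma's adjusted p, which is for these fitted values and not for the bounds, was 1.6e-05 in PI and 4.2e-07 in Young. With 32 added to the intensities before the logarithm, its fitted log2 differences shrank to -1.66 in PI and -2.82 in Young, and both still passed.

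**Figure D1:**
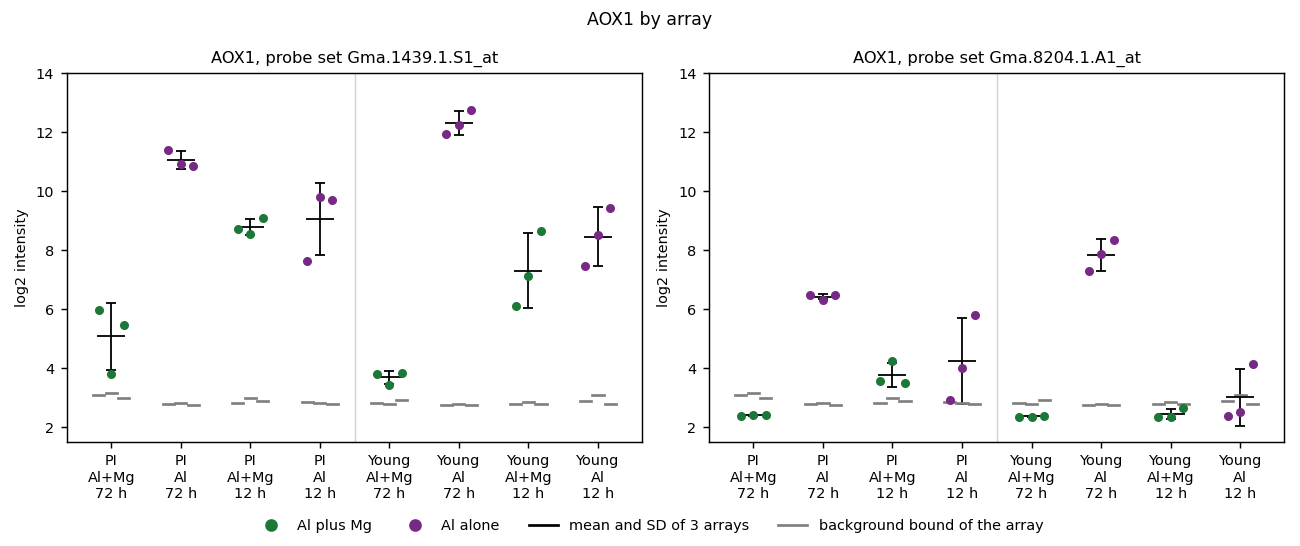
Log2 intensity of the 2 AOX1 probe sets on each of the 24 arrays, by genotype, treatment and time. Points are arrays, black bars the mean and SD of 3 arrays, and grey ticks each array's background bound. In both panels the 72 h groups with Al plus Mg are lowest or at background and the 72 h groups with Al alone are highest.

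AOX2, an AOX2-type oxidase gene, had 5.55, 5.32 and 5.30 in PI with Al plus Mg at 72 h, against 7.37, 6.999 and 6.44 with Al alone. Young roots had 5.67, 5.74 and 5.47 with Al plus Mg, against 6.74, 7.44 and 7.19 with Al alone. The arrays of the 2 treatments did not overlap in either genotype. The log2 difference was -1.54 ± 0.20 (SE) in PI, or 2.92-fold, and -1.50 ± 0.20 in Young, or 2.82-fold, with a limma adjusted p of 1.8e-05 in PI and 1.7e-05 in Young.

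AOX3, the neighbour of AOX2, was lower in both genotypes by all 3 of its probe sets. The probe set with its highest mean, GmaAffx.86361.1.S1_s_at, had 11.76, 11.81 and 12.04 in PI with Al plus Mg at 72 h, against 13.26, 13.23 and 12.64 with Al alone. Young roots had 12.14, 12.09 and 12.22 with Al plus Mg, against 12.69, 13.23 and 13.19 with Al alone. The treatments did not overlap, though the gap between the nearest arrays was smaller than for AOX1. Its log2 difference was -1.17 ± 0.22 (SE) in PI and -0.89 ± 0.22 in Young, with limma adjusted p of 5.3e-04 in PI and 0.0038 in Young.

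The AOX3 probe set without the _s_at ending, Gma.11120.1.S1_at, had 9.27, 9.37 and 9.71 in PI with Al plus Mg at 72 h, against 11.04, 10.95 and 10.30 with Al alone. Young roots had 9.67, 9.70 and 9.78 with Al plus Mg, against 10.40, 11.13 and 10.94 with Al alone. The differences were -1.31 in PI and -1.11 in Young. For GmaAffx.91355.1.S1_s_at they were -1.42 in PI and -1.05 in Young, so that all 3 probe sets of AOX3 fell.

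In all, 6 of 6 alternative oxidase probe sets, and 3 of 3 genes, fell with Mg at 72 h in PI, where 13.0% of all tested probe sets fell. In Young, 6 of 6 fell, where 16.3% of all tested probe sets fell. The median log2 difference of the 6 was -1.48 in PI, against 0.06 over all tested probe sets, and -1.30 in Young, against 0.03. Probe sets of 1 gene share a transcript and are not independent of each other. The 3 genes were also chosen with earlier results of these data known. The shares here and below therefore give the setting of the counts and are not a test of the family.

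**Figure D2:**
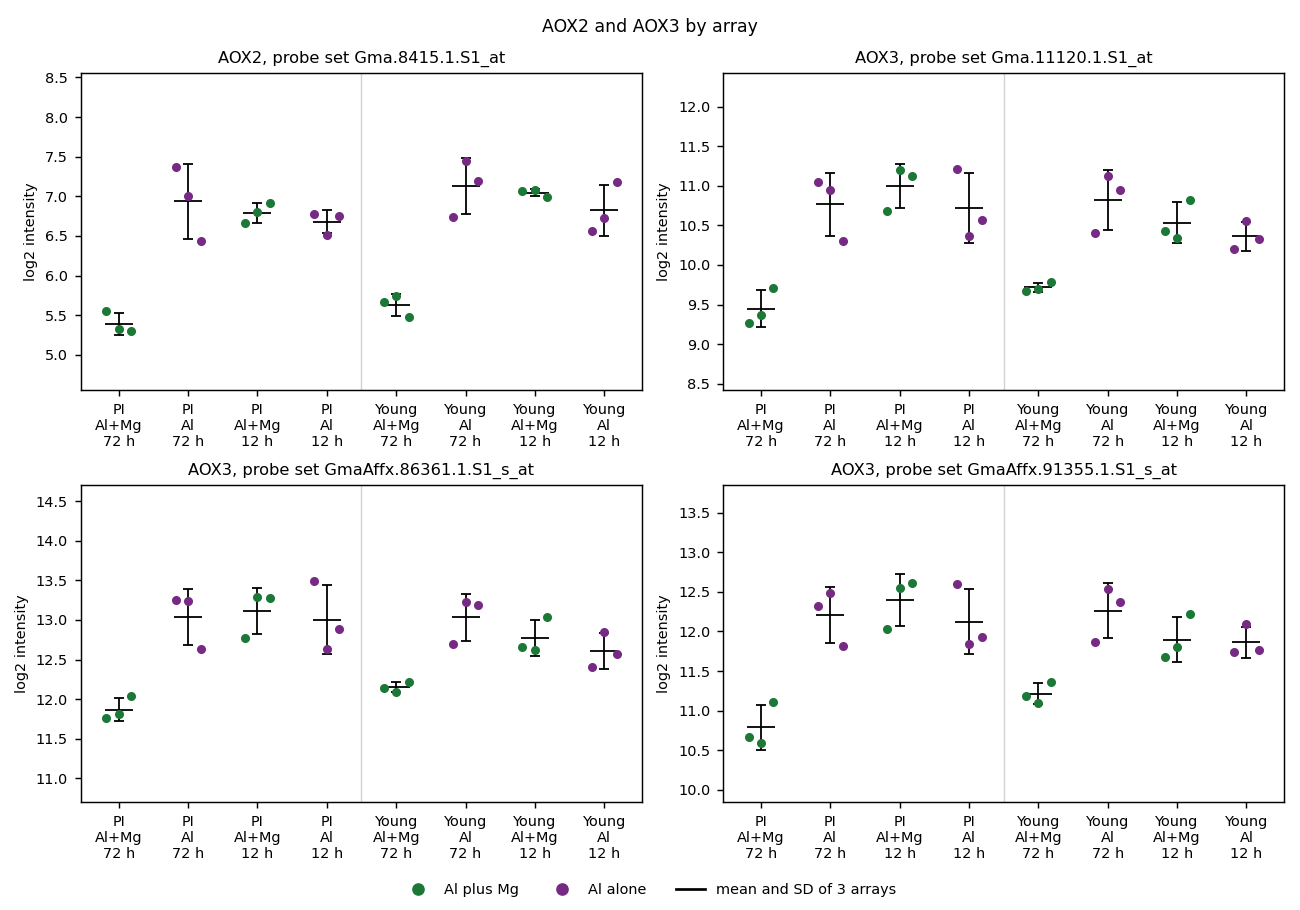
Log2 intensity of the AOX2 probe set and the 3 AOX3 probe sets on each of the 24 arrays. Points are arrays and black bars the mean and SD of 3 arrays, and each panel spans 4 log2 units. The 6 arrays with Al plus Mg at 72 h lie below every other array in all 4 panels.

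At 12 h, 0 of 6 probe sets passed in PI and 0 of 6 in Young, by limma, and 0 reached an unadjusted p under 0.05 in either genotype. Across all tested probe sets, 0.0293% passed by adjusted p at 12 h in PI and 0.0293% in Young. No such share was taken at the unadjusted threshold. AOX1 (Gma.1439.1.S1_at) had 8.73, 8.55 and 9.10 in PI with Al plus Mg, against 7.63, 9.79 and 9.70 with Al alone, and the treatments overlapped. Young roots had 6.12, 7.13 and 8.65 with Al plus Mg, against 7.45, 8.50 and 9.43 with Al alone, again with overlap. The 95% interval of the AOX1 difference ran between -1.67 and 1.17 in PI and between -2.58 and 0.26 in Young. Falls within these intervals are not excluded at this replication.

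AOX2 and AOX3 were measured more tightly at 12 h. The AOX2 difference was 0.11 in PI, with an interval between -0.32 and 0.54, and 0.22 in Young, with an interval between -0.21 and 0.65. The AOX3 differences were 0.11 to 0.29 in PI and 0.03 to 0.17 in Young. Each of these intervals excludes a fall as large as the one fitted for the same probe set at 72 h.

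The change in the Mg difference between the times was itself tested as an interaction. In PI, 6 of 6 probe sets had a more negative difference at 72 h than at 12 h, where 8.03% of all tested probe sets did. In Young, 6 of 6 did, where 15.0% of all tested probe sets did. For AOX1 (Gma.1439.1.S1_at) the interaction was -5.74 ± 0.95 (SE) in PI and -7.47 ± 0.95 in Young. For AOX2 it was -1.66 ± 0.29 in PI and -1.72 ± 0.29 in Young. For AOX3 it lay between -1.69 and -1.28 in PI and between -1.28 and -1.05 in Young. The Young interaction of AOX3 probe set GmaAffx.91355.1.S1_s_at lost its call without Young Al alone 72 h replicate 2 (limma adjusted p 0.0573) and without Young Al plus Mg 12 h replicate 3 (0.0538).

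**Figure D3:**
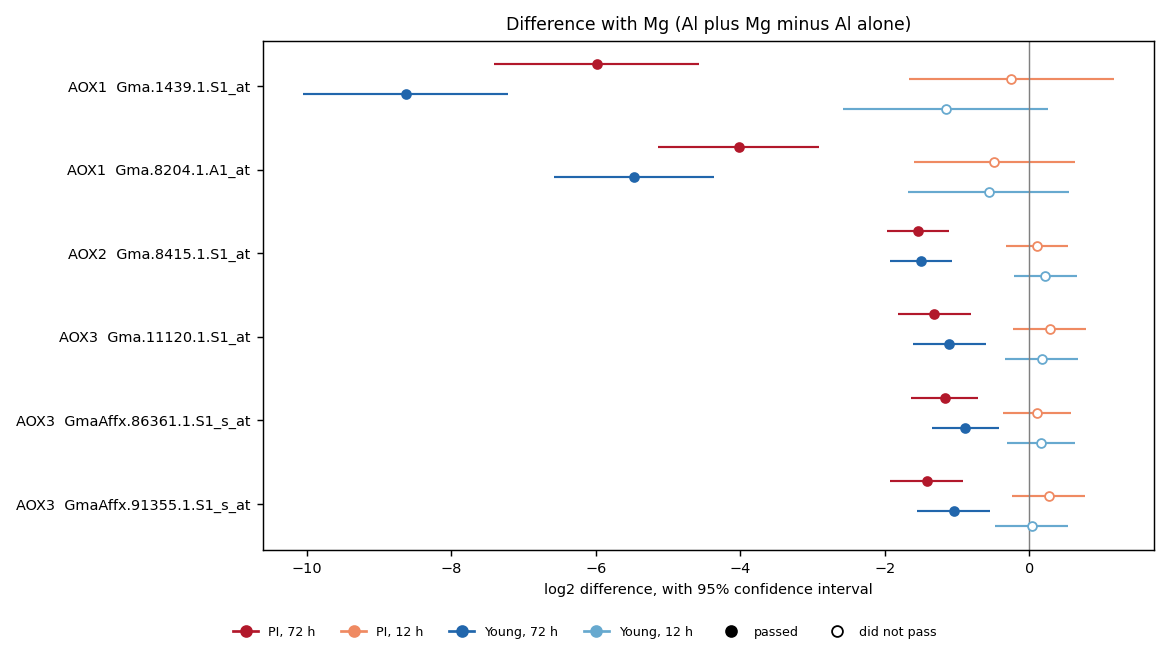
Log2 difference with Mg (Al plus Mg minus Al alone) for each alternative oxidase probe set in PI and Young at 72 h and 12 h, with 95% confidence intervals. Filled points passed at an adjusted p under 0.05 and open points did not. All 12 differences at 72 h lie below 0, and all 12 intervals at 12 h include 0. The Gma.8204.1.A1_at points at 72 h are fitted values against groups at background.

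The other side of this interaction is how each gene differed between the times within a treatment. These comparisons use the same 72 h arrays as the Mg comparisons above and are not separate support for them. With Al alone the AOX1 signal was higher at 72 h than at 12 h, whereas AOX2 and AOX3 did not pass. With Al plus Mg all 3 genes were lower at 72 h than at 12 h.

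With Al alone, AOX1 (Gma.1439.1.S1_at) averaged 11.06 ± 0.30 at 72 h and 9.04 ± 1.22 at 12 h in PI (SD, n = 3 each), a log2 difference of 2.02 ± 0.67 (SE) with a limma adjusted p of 0.0236. In Young it averaged 12.32 ± 0.42 at 72 h and 8.46 ± 0.99 at 12 h (SD, n = 3 each), a log2 difference of 3.86 ± 0.67 with a limma adjusted p of 1.4e-04. Arrays of the 2 times did not overlap in either genotype, although the 12 h arrays were widely spread. The second AOX1 probe set, Gma.8204.1.A1_at, had 6.48, 6.32 and 6.47 at 72 h in PI, against 2.93, 3.99 and 5.82 at 12 h, a log2 difference of 2.18 ± 0.53 (SE), or 1.09 with 32 added to the intensities. In Young it had 7.28, 7.88 and 8.34 at 72 h, against 2.38, 2.52 and 4.13 at 12 h, where 2 of the 3 arrays were at background. Setting those 2 arrays to their bound gave a log2 difference of 4.47 for Young, and the offset of 32 gave 2.67.

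In this treatment 2 of 6 probe sets rose in PI, where 15.7% of all tested probe sets rose, and 2 of 6 rose in Young, where 20.7% did. Both were the AOX1 probe sets. The AOX2 differences were 0.25 in PI and 0.30 in Young, and those of AOX3 were 0.04 to 0.08 in PI and 0.40 to 0.46 in Young. Without PI Al alone 72 h replicate 3, AOX2 passed in PI (log2 difference 0.50, limma adjusted p 0.0458). Without Young Al alone 72 h replicate 1, 2 of the 3 AOX3 probe sets passed in Young, with log2 differences of 0.67 and 0.60.

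The PI calls under Al alone rested on few arrays. Fitted on the arrays of that comparison alone, 0 of 6 probe sets passed, with limma adjusted p of 0.0770 and 0.0932 for the AOX1 pair. Gma.1439.1.S1_at lost its call without PI Al alone 12 h replicate 1 (log2 difference 1.32, limma adjusted p 0.141) and without PI Al alone 72 h replicate 1 (1.85, 0.0827).

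With Al plus Mg, AOX1 (Gma.1439.1.S1_at) averaged 5.07 ± 1.15 at 72 h and 8.79 ± 0.28 at 12 h in PI (SD, n = 3 each), a log2 difference of -3.72 ± 0.67 (SE). In Young it averaged 3.69 ± 0.22 at 72 h and 7.30 ± 1.28 at 12 h (SD, n = 3 each), a log2 difference of -3.61 ± 0.67. The times did not overlap in either genotype, and the Young difference was -2.13 with 32 added to the intensities. The second AOX1 probe set, Gma.8204.1.A1_at, was at background on all 3 PI arrays at 72 h, against 3.57, 4.23 and 3.49 at 12 h, a fall of at least 1.62-fold. Its limma adjusted p of 0.0448 is for the fitted log2 difference of -1.36 and not for that bound. That call was lost in 17 of the 24 fits that each left out 1 array (limma adjusted p 0.0514 to 0.148), when all probe sets except controls were tested (0.0527) and with the offset of 32 (log2 difference -0.30). In Young this probe set was at background on all 3 arrays at both times, and no fold is given.

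AOX2 had 5.55, 5.32 and 5.30 at 72 h in PI with Al plus Mg, against 6.66, 6.80 and 6.92 at 12 h. In Young it had 5.67, 5.74 and 5.47 at 72 h, against 7.07, 7.08 and 6.99 at 12 h. The times were well separated in both, with log2 differences of -1.40 ± 0.20 (SE) in PI and -1.42 ± 0.20 in Young. AOX3 differed by -1.61 to -1.24 in PI and by -0.81 to -0.62 in Young across its 3 probe sets.

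Thus 6 of 6 probe sets were lower at 72 h in PI with Al plus Mg, where 22.4% of all tested probe sets were, and 5 of 6 in Young, where 15.6% were. The Young count rested on AOX3. It was 3 of 6 when each array was set to the same median or when probe sets of other organisms were tested too. It was also 3 without any 1 of the 3 Young Al plus Mg 72 h arrays or without Young Al plus Mg 12 h replicate 2, and 2 without Young Al plus Mg 12 h replicate 3. With the replicate number as a block it was 4, as GmaAffx.86361.1.S1_s_at did not pass (limma adjusted p 0.0545). AOX1 and AOX2 kept their calls in each of these fits.

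**Figure D4:**
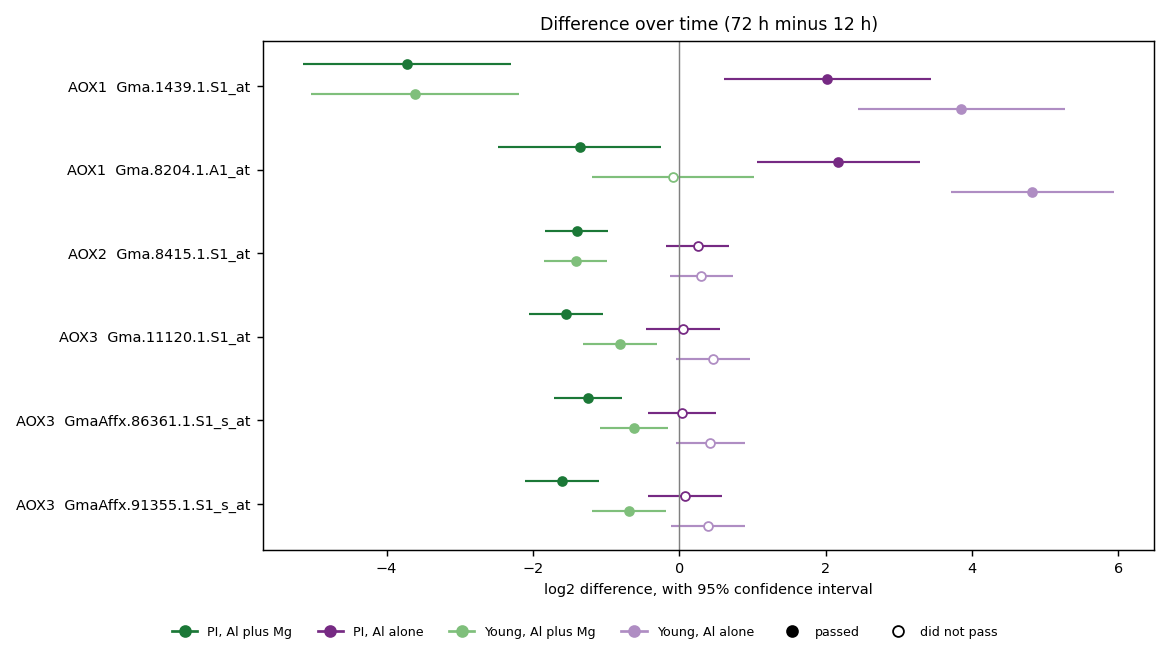
Log2 difference over time (72 h minus 12 h) for each alternative oxidase probe set under each treatment in PI and Young, with 95% confidence intervals. Filled points passed at an adjusted p under 0.05 and open points did not. Only the 2 AOX1 probe sets lie to the right of 0 with filled points, both under Al alone.

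Set in order of their means, the AOX1 groups (Gma.1439.1.S1_at) ran as follows: Young Al alone 72 h at 12.32, PI Al alone 72 h at 11.06, PI Al alone 12 h at 9.04, PI Al plus Mg 12 h at 8.79, Young Al alone 12 h at 8.46, Young Al plus Mg 12 h at 7.30, PI Al plus Mg 72 h at 5.07 and Young Al plus Mg 72 h at 3.69. Neighbouring groups among the 4 at 12 h overlapped in their arrays, as did the lowest pair. For AOX2 the 6 upper groups had means between 6.68 and 7.13 and each overlapped the next, and the Al plus Mg 72 h groups stood below them at 5.63 in Young and 5.39 in PI. For AOX3 (GmaAffx.86361.1.S1_s_at) the 6 upper groups had means between 12.61 and 13.11, above 12.15 in Young and 11.87 in PI with Al plus Mg at 72 h.

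Between the genotypes, 0 of 6 probe sets passed in any of the 4 treatment and time combinations by limma. Over all tested probe sets, 9.83% passed between PI and Young with Al plus Mg at 72 h, 12.6% with Al alone at 72 h, 13.6% with Al plus Mg at 12 h and 4.21% with Al alone at 12 h. At an unadjusted p under 0.05 there were 0 alternative oxidase probe sets with Al plus Mg and 1 with Al alone at 72 h, and 2 with Al plus Mg and 1 with Al alone at 12 h. The shares above are for adjusted p. The share over all tested probe sets at the unadjusted threshold was not taken, so these last counts cannot be set against it.

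At 72 h the AOX1 estimates (Gma.1439.1.S1_at) had opposite signs in the 2 treatments. With Al alone at 72 h, Gma.1439.1.S1_at had 11.41, 10.93 and 10.85 in PI, against 11.95, 12.23 and 12.77 in Young. All PI arrays were below all Young arrays, but the log2 difference of -1.25, with a 95% interval between -2.67 and 0.16, did not pass (limma adjusted p 0.266). Gma.8204.1.A1_at gave -1.41 (limma adjusted p 0.0935), and it passed without PI Al alone 12 h replicate 1 or replicate 3, and with the offset of 32 (log2 difference -1.15, limma adjusted p 0.0031). Those 12 h arrays are in neither group of this comparison, and without them the log2 difference stayed at -1.41 while the adjusted p changed. With Al plus Mg, Gma.1439.1.S1_at was estimated higher in PI, by 1.39 at 72 h, with an interval between -0.03 and 2.81, and by 1.49 at 12 h, with an interval between 0.07 and 2.91. Neither passed (limma adjusted p 0.224 at 72 h and 0.155 at 12 h).

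At 12 h a single array could bring 1 AOX1 probe set past the threshold between genotypes. Without Young Al plus Mg 12 h replicate 3, Gma.1439.1.S1_at differed by 2.17 (limma adjusted p 0.0441). Without PI Al alone 12 h replicate 3, Gma.8204.1.A1_at passed under Al plus Mg (limma adjusted p 0.0322). That array is in neither group of that comparison, and the log2 difference stayed at 1.31 while the adjusted p changed. Without PI Al alone 12 h replicate 1, Gma.8204.1.A1_at passed under Al alone (limma adjusted p 0.0448). In Young this probe set was at background on all 3 arrays with Al plus Mg and on 2 of 3 with Al alone at 12 h, so only bounds on these differences could be had. AOX2 differed between PI and Young by -0.25 to -0.14 over the 4 combinations. The 3 AOX3 probe sets were estimated higher in PI at 12 h, by 0.34 to 0.50 with Al plus Mg and by 0.26 to 0.40 with Al alone. At 72 h they differed by -0.42 to -0.27 with Al plus Mg and by -0.06 to 0.01 with Al alone.

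Whether the Mg difference itself depended on genotype was also tested. At 72 h, 0 of 6 probe sets passed (1 at an unadjusted p under 0.05), where 1.45% of all tested probe sets did. The AOX1 estimate (Gma.1439.1.S1_at) was 2.64 ± 0.95 (SE), a smaller fall in PI than in Young, with a 95% interval between 0.64 and 4.65 and a limma adjusted p of 0.206. AOX2 and AOX3 gave -0.05 and -0.37 to -0.21. At 12 h, 0 of 6 passed (0 at an unadjusted p under 0.05), where 0.0133% of all tested probe sets did. Both shares are for adjusted p, and none was taken at the unadjusted threshold.

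Arrays of a group could be set in order by the level of each gene. In 6 of the 8 groups the same array was highest by all 3 AOX3 probe sets, and in 3 of the 5 groups where both AOX1 probe sets were above background on some array, the same array was highest by both. AOX2 and all AOX3 probe sets shared their highest array in 2 groups. In PI with Al alone at 12 h, replicate 1 was the lowest array by both AOX1 probe sets (7.63 against 9.79 and 9.70 for Gma.1439.1.S1_at) and the highest by AOX2 and all 3 AOX3 probe sets. Across the 8 group means, AOX2 correlated with the AOX3 probe sets at r = 0.907 to 0.918, and AOX1 (Gma.1439.1.S1_at) with AOX2 at r = 0.840. The 3 AOX3 probe sets correlated with one another at r = 0.992 to 0.995 and the 2 AOX1 probe sets at r = 0.887. All these points share the same arrays, and the 72 h groups with Al plus Mg are the lowest points for each gene.

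Patterns most like those of the oxidases were sought among 567 named genes with signal above the filter and group means that spanned at least 1 log2 unit. For AOX1 these were the glutathione transferase GSTU41 (r = 0.982 over 8 group means), the cytochrome P450 genes CYP82A3 (0.974) and CYP82A2 (0.969), PT01 (0.969) and the transcription factor WRKY17 (0.961). For AOX2 they were the pathogenesis-related protein gene PR-10 (0.967), ADC, which encodes the polyamine-synthesis enzyme arginine decarboxylase (0.967), G4DT, a prenyltransferase of glyceollin synthesis (0.962), CDC48 (0.961) and SGR2 (0.956). For AOX3 they were the glutathione transferase GSTU27 (0.979), the transcription factor BZIP68 (0.975), ADC (0.963), PTS1 (0.957) and the calmodulin SCAM-4 (0.956). Each of these genes had its 2 lowest group means with Al plus Mg at 72 h. PT01 and PR-10 were at background there, so the depth of their fall is a bound.

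The sizes differed widely within these lists. CYP82A3 averaged 6.14 in PI with Al plus Mg at 72 h, against 13.96 with Al alone, a wider gap than AOX1 showed in PI. CDC48, among those most like AOX2, averaged 12.14 in PI with Al plus Mg at 72 h, against 12.78 with Al alone. ADC, which is among the nearest to both AOX2 and AOX3, averaged 12.78 in PI with Al plus Mg, against 14.02 with Al alone.

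**Figure D5:**
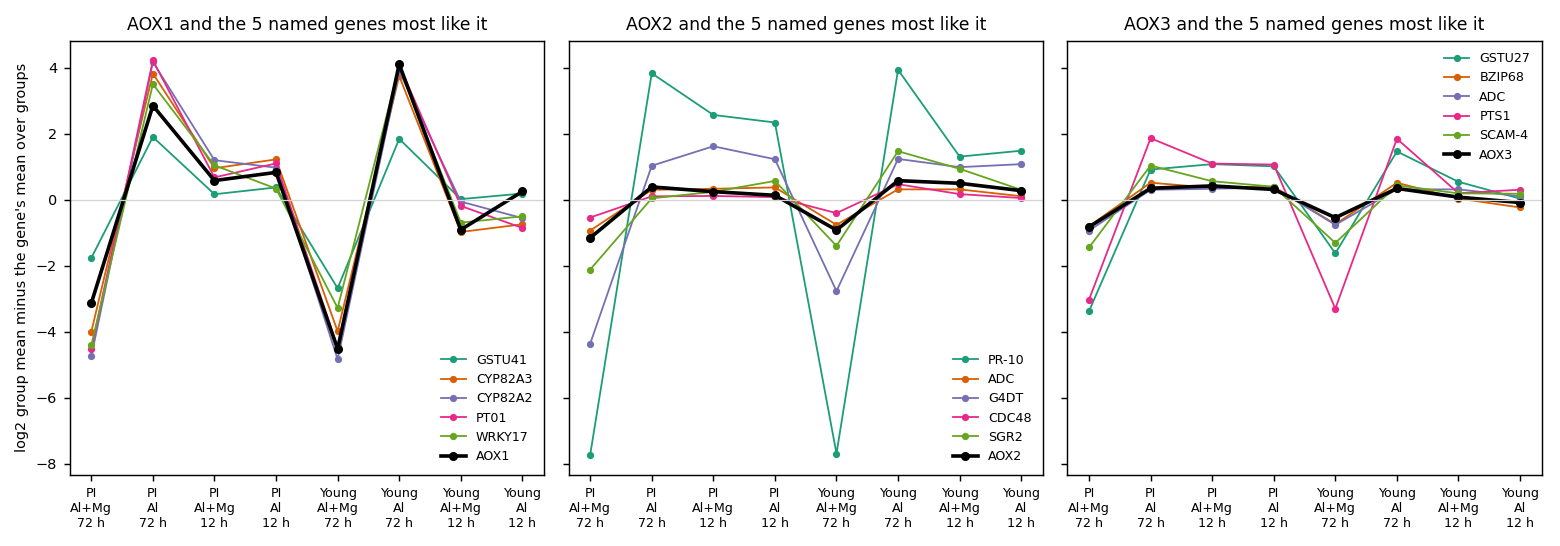
Group means of AOX1, AOX2 and AOX3 (black) and of the 5 named genes most like each, as log2 units from the gene's own mean over the 8 groups. Lines join groups only to guide the eye. In all 3 panels the 72 h groups with Al plus Mg are lowest in both genotypes.

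Genes of related functions were read from lists built on gene symbols. No named gene matched the list of other mitochondrial electron transport components (0 members), so the oxidases could not be set beside the NADH dehydrogenases or cytochrome pathway here. Of 15 genes that remove reactive oxygen, 1 rose and 2 fell with Mg in PI at 72 h, and 2 rose and 3 fell in Young, where 20.7% of all tested probe sets rose and 13.0% fell in PI, and 23.1% rose and 16.3% fell in Young. The list's median log2 difference was 0.06 in PI and 0.03 in Young, as over all tested probe sets. PRX4 had log2 differences of -1.13 in PI and -1.05 in Young, and the catalase CAT4 of -0.79 in PI and -0.94 in Young. The superoxide dismutase SOD1 rose by 0.40 in PI, and the superoxide dismutases SODB2 and SODB rose by 1.83 and 1.52 in Young.

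Of 14 enzymes of organic acid and pyruvate metabolism, 7 rose and 0 fell with Mg at 72 h in PI, and 7 rose and 0 fell in Young. Over all tested probe sets 20.7% rose and 13.0% fell in PI, and 23.1% rose and 16.3% fell in Young. The list's median log2 difference was 0.45 in each genotype, against 0.06 in PI and 0.03 in Young over all tested probe sets. Most members of this list, and most of those that rose, are phosphoenolpyruvate carboxylases or their kinases. The counts and median therefore largely describe that family and not organic acid and pyruvate metabolism at large. Pyruvate and some organic acids are known to activate alternative oxidase proteins. Neither these compounds nor oxidase activity was measured here, and a link between this list and the oxidases was not tested. The phosphoenolpyruvate carboxylase PPC1 rose by 0.91 in PI and by 1.43 in Young, and PPCK3, a kinase of that enzyme, rose by 0.87 in PI and by 0.88 in Young. None of either list passed at 12 h (0 of 15 and 0 of 14 in each genotype), where 0.0293% of all tested probe sets passed in each genotype. PTOX, the plastid relative of alternative oxidase, is in neither list and was looked up after its symbol was seen. Its log2 difference at 72 h was -0.57 in PI and -0.93 in Young, and both passed.

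Other measures moved with the same comparison. The summed intensity of the 2 root tip markers was 9075 to 11230 in PI with Al plus Mg at 72 h, against 5131 to 6047 with Al alone, and 7781 to 9232 in Young with Al plus Mg, against 2560 to 4416 with Al alone. That of the 6 leaf markers overlapped between the treatments in both genotypes at 72 h. The summed seed markers were 31740 to 47120 in PI with Al plus Mg, against 24670 to 31860. In Young they were 44280 to 47460 with Al plus Mg, against 28400 to 41280. The leaf and seed sums mostly followed their highest members, PSAD for leaf and KTI-2 and KTI-3 for seed. Of the leaf markers, 0 rose and 1 fell with Mg in PI at 72 h (RCABETA, log2 difference -1.44). In Young 2 rose, among them CAB3 (1.39), and 0 fell. Of the seed markers, 5 rose and 1 fell in PI, and 4 rose and 1 fell in Young. BBI-1 was the 1 that fell, with log2 differences of -2.75 in PI and -3.67 in Young. Some that rose were at background on most arrays.

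The log2 ratio of 3′ to 5′ signal for the cytochrome P450 control transcript was 4.12 ± 0.25 in PI with Al plus Mg at 72 h and 2.52 ± 0.36 with Al alone (SD, n = 3 each). In Young it was 3.80 ± 0.16 with Al plus Mg and 2.26 ± 0.37 with Al alone (SD, n = 3 each). The ratio for actin was 8.41 ± 0.17 in PI with Al plus Mg at 72 h and 7.99 ± 0.03 with Al alone (SD, n = 3 each). In Young the actin ratio was 8.41 ± 0.04 with Al plus Mg and 7.89 ± 0.20 with Al alone (SD, n = 3 each), so that both control transcripts had higher ratios with Mg at 72 h. The same ratio for ubiquitin averaged between 0.10 and 0.14 in all groups. The ratio of 3′ to middle signal at 72 h differed less. For cytochrome P450 in PI it was 1.73 ± 0.23 with Al plus Mg and 1.52 ± 0.12 with Al alone. In Young it was 1.55 ± 0.08 with Al plus Mg and 1.37 ± 0.11 with Al alone. For actin in PI it was 1.60 ± 0.08 with Al plus Mg and 1.53 ± 0.06 with Al alone. In Young the actin order was the other way, 1.52 ± 0.09 against 1.62 ± 0.08 (all SD, n = 3 each). The part of marker content and of RNA ends in the oxidase differences was not tested.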

How the data were processed

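The members and gene lists were chosen with earlier results of these data known. Per the labels' protocols, total RNA of soybean root tips was reverse transcribed with an oligo-dT primer, amplified as biotin-labelled cRNA and hybridised to Affymetrix arrays. The deposited table holds linear intensity values, with similar upper quartiles across arrays. How the authors corrected background, summarised probes and normalized is not given in the sources used here. Intensities were floored at 1 and taken to log2. Nothing was normalized further.

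limma 3.58.1 in R 4.3.3 fitted a mean for each of 8 groups on all 24 arrays over 37593 soybean probe sets. P-values were adjusted by Benjamini-Hochberg within each of 16 comparisons, and 0.05 was the threshold. limma is the source of every adjusted p. Array number limits the precision. A probe set under the 99th percentile of other organisms' probe sets on all arrays of a group has only a bound there, and its fold is given as at least that of the other group over the bound.

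The annotation table names 1 gene for 8677 probe sets and several for 370, which name none. All probe sets of the 3 genes are described, with the 5 named genes most like each by Pearson's r over group means and at most 4 list members per comparison that passed. A list takes the highest probe set of each gene. PDH was left out because that symbol has several meanings. The 3 gene IDs matched RefSeq. Replicate numbers of the labels were checked for pairing. Deviations of same-numbered arrays correlated at -0.43 to 0.41 over 36 pairs of arrays, with 10 over 0.1. Own numbers matched best in 2 of 12 array pairs between treatments, so no block was fitted in general. In 1 of 12 comparisons, 72 h against 12 h in Young with Al plus Mg, every pair correlated over 0.1 (r 0.145 to 0.248), and its blocked count stands beside the result. Alternatives were a signal filter, wider probe sets, quantile and median scaling, a trended robust variance, fewer arrays, an offset of 32, a replicate block and leaving out each array.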

Additional observations from a re-analysis of the deposited data

Results flagged for a closer look

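In each genotype the Mg difference (Al plus Mg minus Al alone) at 72 h was compared with that at 12 h, and all 6 alternative oxidase probe sets differed between the times by limma. For AOX1 in PI the difference of differences was -5.74 ± 0.95 (SE) by Gma.1439.1.S1_at, with an adjusted p of 4.6e-04, and -3.54 ± 0.75 by Gma.8204.1.A1_at, with an adjusted p of 0.0031. For AOX1 in Young it was -7.47 ± 0.95 by Gma.1439.1.S1_at and -4.91 ± 0.75 by Gma.8204.1.A1_at, with limma adjusted p of 1.8e-05 for the first and 8.8e-05 for the second probe set. The Gma.8204.1.A1_at values rest on groups at background, and with those arrays set to their bound they were -2.87 in PI and -4.43 in Young. With 32 added to the intensities they were -1.39 in PI and -2.68 in Young, and both passed.

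For AOX2 it was -1.66 ± 0.29 in PI and -1.72 ± 0.29 in Young. For AOX3 in PI it was -1.60 by Gma.11120.1.S1_at, -1.28 by GmaAffx.86361.1.S1_s_at and -1.69 by GmaAffx.91355.1.S1_s_at. For AOX3 in Young it was -1.28, -1.05 and -1.08 by the same probe sets in the same order.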

How the results depend on the processing

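The counts of 6 of 6 probe sets lower with Mg at 72 h, 0 of 6 at 12 h and 0 of 6 for the dependence of the Mg difference on genotype were the same under every alternative run. Probe sets lower over time in Young with Al plus Mg numbered 3 in place of 5 when all probe sets except controls were tested and with equal array medians. Those higher over time in PI with Al alone numbered 0 in place of 2 with the arrays of the comparison alone. With the offset of 32, 1 in place of 0 differed between PI and Young under Al alone at 72 h. Probe sets lower over time in PI with Al plus Mg numbered 5 in place of 6 with all probe sets except controls and with the offset. The causes of these changes were not tested. With each array left out in turn, these counts ran from 5 to 6 over time in PI with Al plus Mg, 1 to 3 in PI with Al alone, 2 to 5 in Young with Al plus Mg and 2 to 4 in Young with Al alone. Between genotypes they ran from 0 to 1 with Al alone at 72 h and with either treatment at 12 h, and for the Young interaction with time from 5 to 6. With the replicate number as a block, the call of AOX3 probe set GmaAffx.86361.1.S1_s_at over time in Young with Al plus Mg (log2 difference -0.62) was lost, at a limma adjusted p of 0.0545, and no other alternative oxidase call changed.

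Differences that changed sign were all far from the threshold. With quantile normalization, AOX3 by GmaAffx.86361.1.S1_s_at differed between PI and Young under Al alone at 72 h by -0.012, and the Mg difference of AOX2 differed between genotypes at 72 h by 0.083. With the offset the AOX2 estimate was 0.0088, and the AOX1 estimate (Gma.8204.1.A1_at) for the same dependence at 12 h was -0.13. Leaving out single arrays gave these ranges for the others. The Mg difference at 12 h in PI ran from -0.95 to 0.13 for Gma.1439.1.S1_at, from -1.14 to 0.30 for Gma.8204.1.A1_at and from -0.075 to 0.35 for GmaAffx.86361.1.S1_s_at, and in Young from -0.12 to 0.15 for GmaAffx.91355.1.S1_s_at. Over time in PI with Al alone, AOX3 ran from -0.12 to 0.30 for Gma.11120.1.S1_at, -0.15 to 0.28 for GmaAffx.86361.1.S1_s_at and -0.057 to 0.32 for GmaAffx.91355.1.S1_s_at. Over time in Young with Al plus Mg, Gma.8204.1.A1_at, at background, ran from -0.14 to 0.017. Between PI and Young under Al alone at 72 h, AOX2 ran from -0.41 to 0.060 and the AOX3 probe sets from -0.27 to 0.17, -0.16 to 0.21 and -0.25 to 0.15, and at 12 h AOX2 ran from -0.27 to 0.039. For the dependence of the Mg difference on genotype, the ranges at 72 h were -0.30 to 0.17 for AOX2 and -0.44 to 0.0021 for Gma.11120.1.S1_at. At 12 h they were -0.58 to 0.86 for Gma.8204.1.A1_at, -0.29 to 0.020 for AOX2, -0.055 to 0.36 for Gma.11120.1.S1_at and -0.24 to 0.19 for GmaAffx.86361.1.S1_s_at.

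Over all tested probe sets, the number that passed with Mg in PI at 72 h was 12685, against 19811 when all probe sets except controls were tested and 8007 with the arrays of that comparison alone. The wider set adds the 23394 probe sets for other organisms. The background bounds taken from these were 3.07, 3.14 and 2.99 in PI with Al plus Mg at 72 h, against 2.79, 2.82 and 2.75 with Al alone. The shares over all tested probe sets include soybean probe sets at background. The part of background in these counts was not tested. The genotype comparisons called 365 to 1457 with their own arrays alone, against 1584 to 5099 in the fit of all arrays. That between PI and Young with Al plus Mg at 72 h called 8469 in place of 3696 with all probe sets except controls. The Mg difference by genotype at 72 h called 221 in place of 544 with its own arrays. At 12 h the Mg counts of 11 in each genotype ran between 0 and 17, and the dependence on genotype, at 5, between 3 and 8. The 3 arrays of a group leave AOX1 at 12 h with intervals several log2 units wide. Values at background have no order, so the size of the AOX1 fall by Gma.8204.1.A1_at is known only as a bound.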
